A study of Homo sapiens with 6 samples.

Results

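The small nucleolar RNA (snoRNA) host genes examined here are SNHG1, SNHG3, SNHG5, SNHG6, SNHG7, SNHG8, SNHG12, SNHG15, GAS5 and ZFAS1. They were chosen by name, as well-known noncoding hosts, with earlier results of these data known. They are 10 of the 23686 genes in the count files. RNA was sequenced from HEK293 cells, a human embryonic kidney line, carrying green fluorescent protein (GFP) and sorted by flow cytometry for that protein. The 3 ROS co-culture libraries are labelled as cells grown beside HEK293 cells that produce reactive oxygen species (ROS) and carry DAAO, the oxidase that turns D-amino acids such as D-alanine over with hydrogen peroxide as a product. The 3 control libraries are labelled as wild-type controls. A single treatment text, naming 10 h of co-culture and 25 µM D-alanine, is attached to all 6 samples, so whether the controls had D-alanine or partner cells is not stated. All groups share the GFP+ HEK293 background, high-glucose medium with serum and the sort. The labels do not say how DAAO or GFP was introduced, whether the cells are 1 clone, or whether the 3 libraries of a group came from separate cultures, so p-values measure the spread between these libraries only.

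A snoRNA host gene is transcribed as a long precursor whose introns hold snoRNAs. Splicing frees the introns, and the snoRNA is trimmed out of them and assembled with proteins into a particle that modifies ribosomal RNA: box C/D snoRNAs guide ribose methylation and box H/ACA snoRNAs guide pseudouridylation. What remains is the joined exons, which in noncoding hosts such as these form an RNA that encodes no long protein. Many such host RNAs begin with a terminal oligopyrimidine (TOP) tract, as ribosomal protein mRNAs do, are bound by ribosomes over short reading frames and are broken down by nonsense-mediated decay, which needs translation. GAS5 was named for its accumulation in growth-arrested cells. Levels of the host RNA and of the snoRNAs inside it can therefore differ, since each has its own fate after splicing.

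The start regions are shown first because the TOP tract lies there. RefSeq holds a promoter window for 8 of the 10 hosts on build GRCh38.p14, matched by symbol; SNHG6 and SNHG15 have none in that table. Capitals mark the motif TATATAA at 40 to 21 bases before the RefSeq start, and a pyrimidine run that opens with C exactly at the start and is followed by at least 4 further C or T. Both motifs were read on the transcribed strand only, and each window runs from 40 bases before the start to 30 bases from it. SNHG5 (chr6:85678704-85678773, minus strand), SNHG12 (chr1:28581844-28581913, minus strand) and ZFAS1 (chr20:49278602-49278671, plus strand) held both motifs, and SNHG3 (chr1:28505903-28505972, plus strand) and SNHG1 (chr11:62855856-62855925, minus strand) held neither, as did GAS5, SNHG7 and SNHG8, which are not shown. Of the 8 hosts, 3 (37.5%) thus held both.
SNHG5: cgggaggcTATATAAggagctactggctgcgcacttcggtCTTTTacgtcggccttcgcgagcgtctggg
SNHG12: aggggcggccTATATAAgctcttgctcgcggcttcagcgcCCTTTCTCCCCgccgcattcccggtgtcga
ZFAS1: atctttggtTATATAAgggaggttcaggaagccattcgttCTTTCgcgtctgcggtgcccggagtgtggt
SNHG3: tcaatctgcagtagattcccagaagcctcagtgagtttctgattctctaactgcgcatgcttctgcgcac
SNHG1: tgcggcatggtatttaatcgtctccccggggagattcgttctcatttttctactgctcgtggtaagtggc
Over all 35116 RefSeq windows, 4.07% held the pyrimidine start, 0.572% held TATATAA in that place and 0.0256% held both. Among 85 windows of ribosomal protein genes the shares were 56.5%, 4.71% and 3.53%. The match depends on the exact base at which RefSeq places the start, and the absence of a match says only that these letters are not there. Only the exact string TATATAA was counted, so the SNHG7 window, which reads ctataaaagg in that stretch, was not a match. Shares for such variants were not counted.

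None of the 10 host RNAs passed the test across all genes between the groups. All 10 passed the filter on low counts, and 0 were called at an adjusted p under 0.05 in edgeR's quasi-likelihood test, where 4.83% of the 14582 tested genes were called, 704 in all (2.66% higher, 2.17% lower). DESeq2 and limma-voom also called 0 of the 10. At an unadjusted p under 0.05 there were 2 members, SNHG3 (higher) and SNHG6 (lower), against 23.2% of all tested genes. The same 2 were the only members whose libraries did not overlap between the groups, against 29.3% of tested genes (14.3% higher, 15% lower). By sign alone, 3 members were higher and 7 lower in co-culture, with a median log2 fold change of -0.09 beside -0.00 for all tested genes. The median coefficient of variation across the control libraries was 10.6% for the members and 7.35% for tested genes with a mean of at least 5 CPM. All levels below are in CPM, reads scaled to the library total, adjusted by trimmed means of M-values (TMM) and listed for libraries 1, 2 and 3 in that order, and every log2 fold change is co-culture over control.

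**Figure D1:**
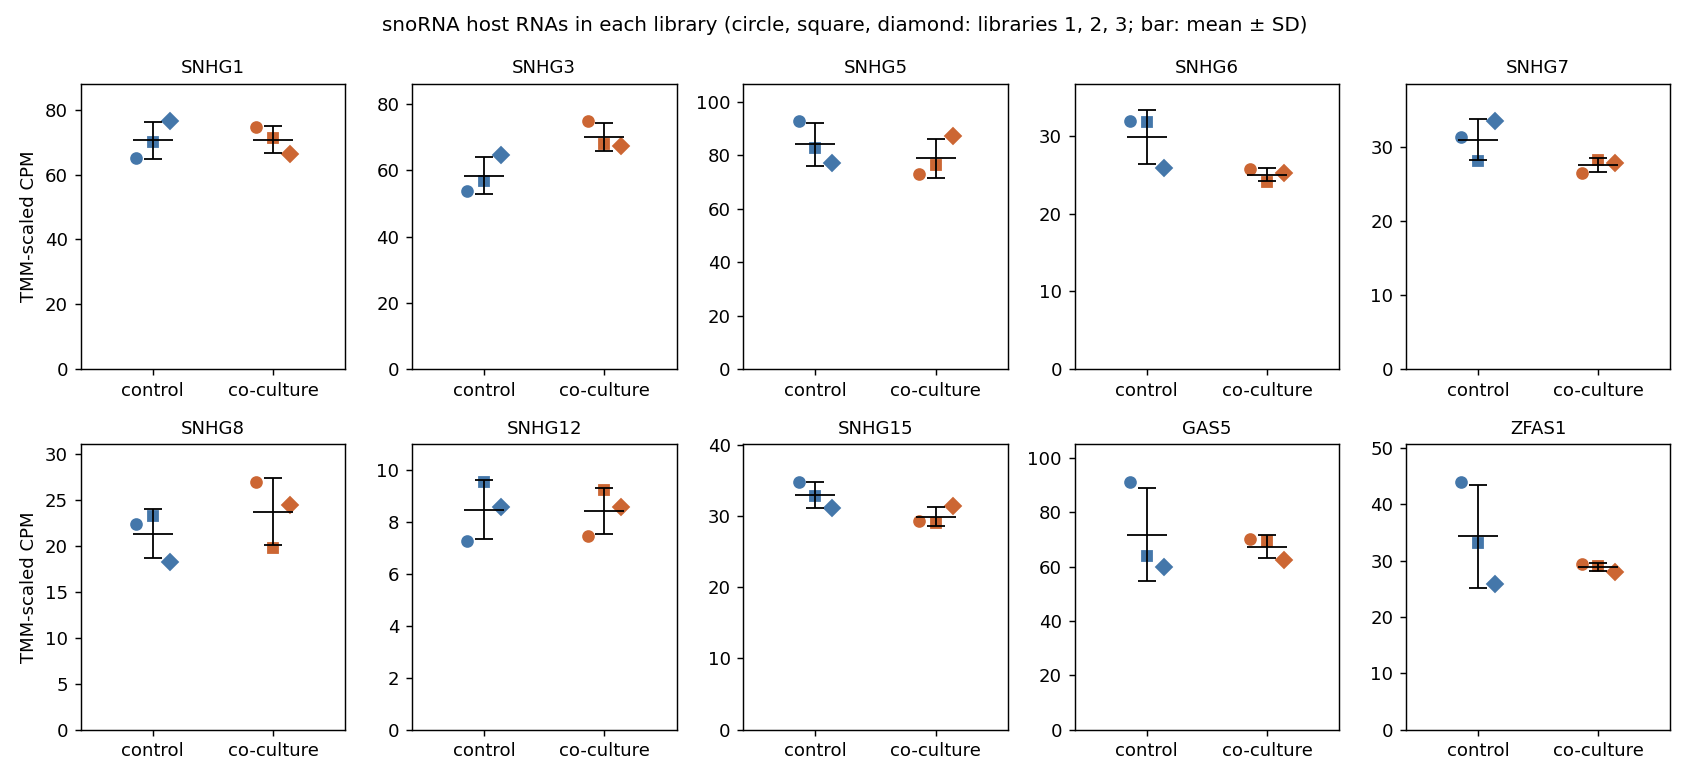
TMM-scaled CPM (vertical axes, from 0, a separate scale in each panel) of the 10 host RNAs in the 3 control and 3 co-culture libraries; points are libraries, bars the mean ± SD. SNHG3 and SNHG6 are the panels where the groups do not overlap, and control 1 stands above the other controls for GAS5 and ZFAS1.

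The box C/D hosts come first, starting with GAS5, which carries 10 snoRNAs in its introns. GAS5 was at 70.1, 69.4 and 62.4 CPM in co-culture and at 91.2, 64.0 and 59.7 CPM in the controls. The groups overlapped, and control 1 was the highest of the 6 libraries, 1.48 times the mean of the other controls. The means were 67.3 ± 4.24 and 71.6 ± 17.1 CPM (SD, n = 3 each). The difference on the log2 scale was -0.09 (SE 0.15) with an edgeR adjusted p of 0.758. Without control 1 it was 0.12 with an adjusted p of 0.199, so the sign of the GAS5 value rested on that library. Its 95% interval with all libraries ran from -0.43 to 0.25.

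ZFAS1, the host antisense to the start of ZNFX1, was at 29.4, 29.1 and 28.0 CPM in co-culture and at 44.0, 33.2 and 25.8 CPM in the controls. The co-culture libraries lay close together, with a coefficient of variation of 2.42%, inside a control range with one of 26.7%. Control 1 was again highest, at 1.49 times the mean of the other controls. The fitted log2 difference was -0.25 with an SE of 0.16 and a 95% interval from -0.62 to 0.13, and edgeR's adjusted p was 0.407. It was -0.03 without control 1 (edgeR adjusted p = 0.871) and -0.42 without control 3, so these 2 controls set its size. Without control 3 ZFAS1 was called (edgeR adjusted p = 0.0419), in a fit that called 2.26% of all genes lower.

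SNHG1, whose introns hold 8 box C/D snoRNAs, was at similar levels in both groups. Its levels were 74.8, 71.4 and 66.4 CPM in co-culture and 65.1, 70.1 and 76.6 CPM in the controls, and the ranges covered each other almost entirely. The means were 70.8 ± 4.20 and 70.6 ± 5.79 CPM (SD, n = 3 each). With a log2 fold change of 0.00 (SE 0.08), SNHG1 had an edgeR adjusted p of 0.990. The 95% interval, from -0.16 to 0.17, is the range of change that these libraries leave for SNHG1.

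SNHG5, host of the SNORD50 pair, was at 73.2, 76.4 and 87.3 CPM in co-culture and at 92.9, 82.6 and 77.1 CPM in the controls. The groups overlapped, with control 1 highest. The log2 fold change was -0.09 (SE 0.09, edgeR adjusted p = 0.569, 95% interval -0.28 to 0.10).

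SNHG6, host of SNORD87, was at 25.8, 24.1 and 25.2 CPM in co-culture and at 32.0, 31.9 and 25.9 CPM in the controls. The co-culture libraries were all lower, but control 3 lay just above co-culture 1. The means were 25.0 ± 0.857 and 29.9 ± 3.47 CPM (SD, n = 3 each). Its log2 fold change was -0.25 (SE 0.09, 95% interval -0.46 to -0.05). It did not pass the adjustment over all genes (edgeR adjusted p = 0.131). Without control 3 it was -0.35 and was called (edgeR adjusted p = 0.0326), in a fit that called 2.26% of all genes lower. SNHG6 had 1117 more reads on its own strand than in the strand-blind column over the 6 libraries, and SNHG7 and GAS5 had 508 and 442 more. A read over genes on both strands is ambiguous to a strand-blind count, so for these hosts the strand-specific column holds reads that the other drops.

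Of the H/ACA hosts, SNHG3 carries the SNORA73 pair, also known as U17, which takes part in ribosomal RNA cleavage, not modification. It was at 75.0, 67.9 and 67.3 CPM in co-culture and at 53.7, 56.8 and 64.5 CPM in the controls. All co-culture libraries were higher than all controls, and control 3 came closest. The means were 70.05 ± 4.26 and 58.4 ± 5.56 CPM (SD, n = 3 each), 1.20 times higher. Its log2 fold change of 0.26 (SE 0.08) was the largest increase among the 10 members in this fit, with a 95% interval from 0.08 to 0.44, an unadjusted p of 0.00760 and an edgeR adjusted p of 0.0855. SNHG3 was called in 2 of 14 alternative settings, without control 1 and without control 3. Without control 1 its log2 fold change was 0.20 (edgeR adjusted p = 0.0438), in a fit that called 10.6% of all genes higher. Without control 3 it was 0.34 (edgeR adjusted p = 0.0275), in a fit that called 2.74% of all genes higher. Over all 14 settings the adjusted p lay between 0.0275 and 0.277 and the log2 fold change between 0.20 and 0.36.

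SNHG7, host of SNORA17 and SNORA43, was at 26.4, 28.2 and 27.8 CPM in co-culture and at 31.3, 28.1 and 33.5 CPM in the controls. Control 2 alone lay within the co-culture range. SNHG7 differed by -0.17 on the log2 scale, with an SE of 0.08, a 95% interval from -0.35 to 0.01 and an edgeR adjusted p of 0.236. Reads on the opposite strand of SNHG7 came to 9.21% of its total and those of SNHG8 to 5.66%, against 0.112% to 1.56% for the other members.

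SNHG8, host of SNORA24, was at 27.0, 19.8 and 24.5 CPM in co-culture and at 22.4, 23.3 and 18.3 CPM in the controls. The groups overlapped broadly. For SNHG8 the log2 fold change was 0.16 (SE 0.13, edgeR adjusted p = 0.483, 95% interval -0.12 to 0.44).

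SNHG15, host of SNORA9, was at 29.3, 29.1 and 31.4 CPM in co-culture and at 34.8, 32.8 and 31.1 CPM in the controls. Control 3 fell inside the co-culture range. A log2 fold change of -0.13 was fitted for SNHG15 (SE 0.07, edgeR adjusted p = 0.307, 95% interval -0.30 to 0.03).

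SNHG12 carries both kinds, 3 H/ACA snoRNAs and the snoRNA SNORD99, and had the fewest reads of the members. It was at 7.46, 9.22 and 8.58 CPM in co-culture and at 7.28, 9.55 and 8.55 CPM in the controls, so the groups covered the same range. The log2 fold change was -0.01 (SE 0.14, edgeR adjusted p = 0.987, 95% interval -0.31 to 0.30). Behind the members stood 144 to 3124 reads per library, the fewest for SNHG12.

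**Figure D2:**
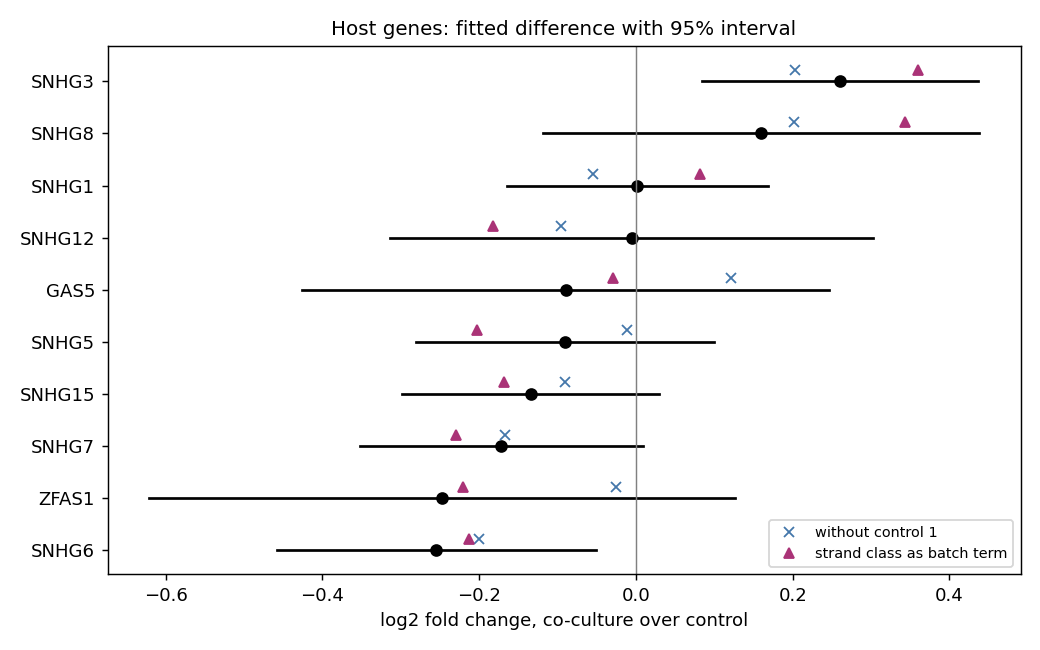
Fitted log2 fold change (horizontal axis, co-culture over control) of each host RNA with its 95% interval before adjustment for the number of genes. Crosses give the value without control 1 and triangles the value with strand class as a term. The fit behind the triangles sets co-culture 1 alone against the controls. The intervals of SNHG3 (0.08 to 0.44) and SNHG6 (-0.46 to -0.05) exclude 0, and the cross for GAS5 lies on the other side of 0 from its point.

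Library by library, the members took different orders. Control 1 held the highest level of 5 members (SNHG5, SNHG6, SNHG15, GAS5 and ZFAS1) and the lowest of 3 (SNHG1, SNHG3 and SNHG12). The genes most like the mean standardised log2 CPM of the members over the 6 libraries, of 11637 genes with a mean of at least 5 CPM, were CLPP (Pearson r = 0.993), OPTN (0.993), MOB3A (0.990), RIN3 (0.986) and CCDC28B (0.983). None of these 5 was called between the groups, and 6 libraries leave such r values as a description.

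The snoRNAs inside the hosts gave another picture: their summed reads were higher in every co-culture library than in every control. The sequences of 5 of them are shown to make clear what the reads fall on, as a stretch of intron and not of the joined exons. They were chosen after their values were seen, as those with groups that did not overlap and a sequence in GENCODE 29 (GRCh38), matched by symbol. Capitals mark TGATGA (box C) within the first 20 bases and CTGA (box D) within the last 15 of a box C/D snoRNA. They also mark ACA placed 3 bases from the end of an H/ACA snoRNA. SNORA44 has no match, and SNORD22 has a match for box D only. SNORD22 (chr11:62852910-62853035, minus strand) and SNORD27 (chr11:62855012-62855083, minus strand) lie in SNHG1. SNORA44 (chr1:28580381-28580512, minus strand) lies in SNHG12, SNORA9 (chr7:44985378-44985510, minus strand) in SNHG15 and SNORD12 (chr20:49280683-49280772, plus strand) in ZFAS1.
SNORD22: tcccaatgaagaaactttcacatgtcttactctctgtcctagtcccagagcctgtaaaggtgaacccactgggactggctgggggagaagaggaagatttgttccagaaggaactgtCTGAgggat
SNORD27: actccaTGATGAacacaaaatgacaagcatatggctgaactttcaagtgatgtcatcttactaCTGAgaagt
SNORA44: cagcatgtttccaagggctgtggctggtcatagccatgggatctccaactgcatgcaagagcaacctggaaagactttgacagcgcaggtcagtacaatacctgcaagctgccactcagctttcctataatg
SNORA9: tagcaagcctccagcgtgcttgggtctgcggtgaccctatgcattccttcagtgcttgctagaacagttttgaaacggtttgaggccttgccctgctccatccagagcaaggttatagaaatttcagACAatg
SNORD12: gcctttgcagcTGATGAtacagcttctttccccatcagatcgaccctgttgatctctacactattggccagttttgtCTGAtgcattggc

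The files hold 32 rows for snoRNAs of 9 hosts, with 4313 reads in all. Their summed level was 35.4, 37.3 and 31.5 CPM in co-culture and 20.9, 27.2 and 29.1 CPM in the controls. The groups did not overlap, with control 1 lowest and control 3 nearest to the co-culture libraries. The means were 34.7 ± 2.93 and 25.7 ± 4.29 CPM (SD, n = 3 each), 1.35 times higher in co-culture (exact two-sided permutation p = 0.1, the smallest this design allows). Leaving out each library in turn gave 1.23 times (without control 1) to 1.45 times (without control 3). Set against the reads of the 9 hosts themselves, the snoRNA reads came to 9.74%, 10.5% and 8.72% in co-culture and 4.96%, 7.24% and 8.15% in the controls. The means of these shares were 9.64% ± 0.874 and 6.78% ± 1.65 (SD, n = 3 each). Control 1 was again lowest and control 3 nearest to the co-culture libraries.

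GAS5 and SNHG1 gave most of these reads. The 10 snoRNA rows of GAS5 summed to 11.96, 13.1 and 10.8 CPM in co-culture and 8.44, 10.0 and 10.1 CPM in the controls, 1.26 times higher with no overlap. The 8 rows of SNHG1 summed to 16.5, 15.96 and 13.02 CPM in co-culture and 7.63, 12.7 and 12.5 CPM in the controls, 1.38 times higher with no overlap, though co-culture 3 and control 2 lay close together. For SNHG1 the host RNA thus overlapped between the groups while the sum of its snoRNA rows did not. The single row of SNHG15 (152 reads, 1.52 times) and the 3 rows of ZFAS1 (127 reads, 1.08 against 0.723 CPM on average) also did not overlap. Among all tested genes, taken singly, 14.3% were higher without overlap. The rows of SNHG12 (413 reads, 1.36 times), SNHG5 (130 reads, 1.53 times) and SNHG6 (101 reads, 1.84 times) overlapped between the groups. SNHG7's 2 rows had 0 reads, which allows up to 3 reads or 0.0838 to 0.156 CPM per library, and SNHG8's row had 14 reads. The names for the SNORA73 pair of SNHG3 were not matched in the files. These bounds and counts carry counting error only.

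**Figure D3:**
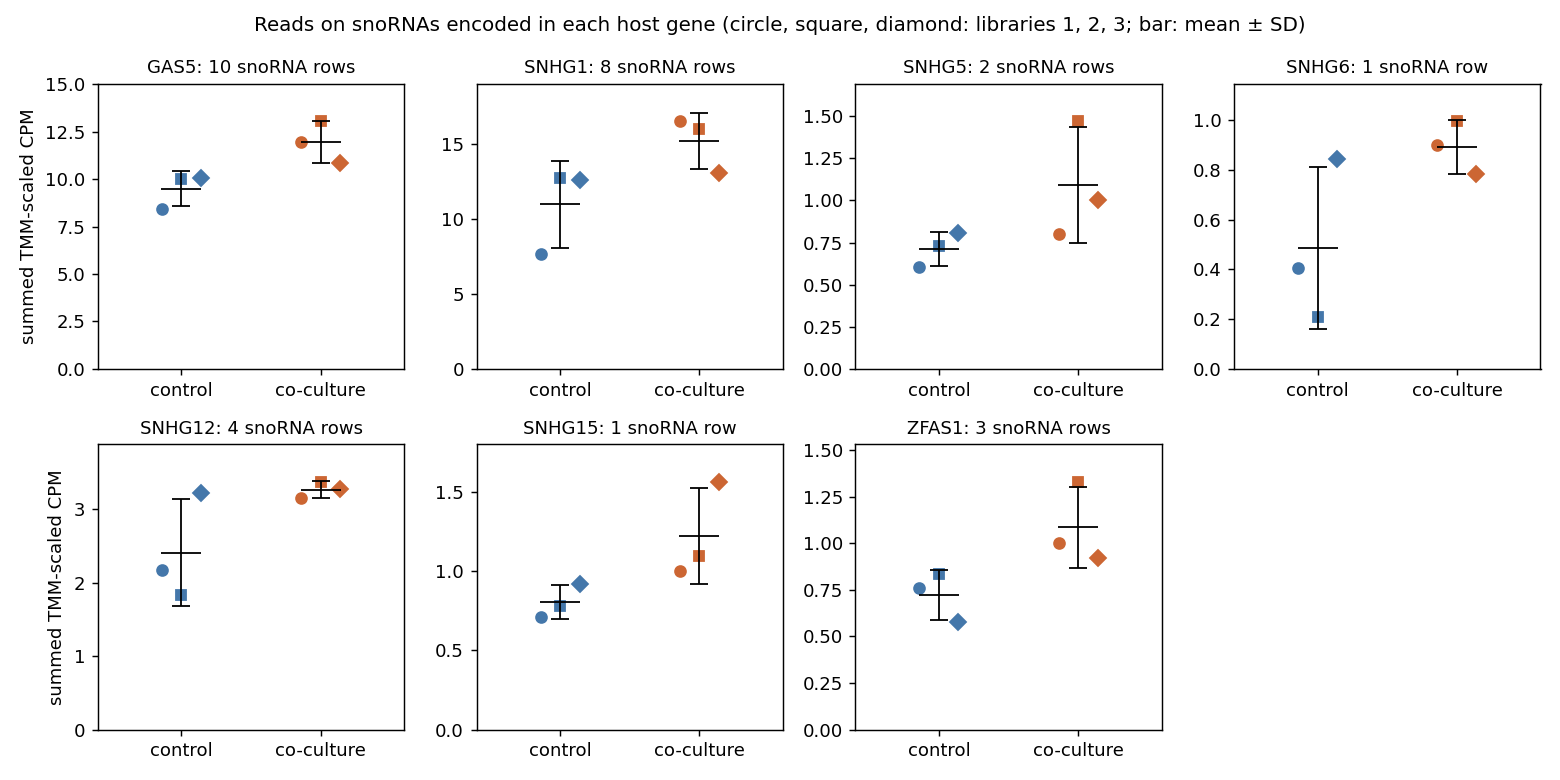
Summed TMM-scaled CPM (vertical axes, from 0, a separate scale in each panel) of the snoRNA rows inside the 7 hosts with at least 100 such reads; points are libraries, bars the mean ± SD. GAS5, SNHG1, SNHG15 and ZFAS1 show no overlap between control and co-culture.

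No single snoRNA of the hosts was called. Of the 32 rows, 22 passed the count filter and edgeR and limma-voom called 0 of them. DESeq2 gave an adjusted p for 15 of the 22 and called 0, and gave none for the other 7, SNORA44, SNORD81 and SNORD12 among them. In edgeR 6 of the 22 had an unadjusted p under 0.05 (5 higher, 1 lower), where 23.2% of all tested genes did, and 6 were higher without overlap, where 14.3% of tested genes were. The filter keeps low rows that are high in 1 group, so the signs are given without it: 27 of 30 rows with reads were higher, with a median log2 fold change of 0.41, beside 21 of the 22 and a median of 0.58 after it. SNORA44 of SNHG12 was at 0.851, 1.14 and 1.03 CPM in co-culture and 0.354, 0.469 and 0.537 CPM in the controls (log2 fold change 1.13, SE 0.31, edgeR adjusted p = 0.0627). SNORD81 of GAS5 went the other way without overlap, at 0.751, 0.760 and 0.642 CPM in co-culture and 1.01, 1.25 and 1.11 CPM in the controls (log2 fold change -0.66, edgeR adjusted p = 0.172). Both were singled out after their values were seen. The same direction was found outside the hosts: the 336 other SNORA and SNORD rows summed to 136, 137 and 123 CPM in co-culture and 86.2, 101 and 111 CPM in the controls, 1.33 times higher (exact two-sided permutation p = 0.1). Of the 82 such rows that passed the filter, 3 were called higher (SNORD21, SNORD83B and SNORD2) and 0 lower, where 2.66% of all tested genes were called higher, and 73 were higher by sign. The filter acts on these low rows in the same way, and their signs were not counted without it. The sum covers all 336 rows.

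The library kit selects polyadenylated RNA, which mature snoRNAs are not, so reads on these rows can come from unspliced precursor, freed introns or carried-over snoRNA, and these cannot be told apart here. Reads that met no annotated exon on the counted strand, intronic reads included, came to 14.8% to 17.7% in co-culture and 15.5% to 16.5% in the controls, and the part of this in the snoRNA difference was not tested.

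The libraries held 20168708 to 36250314 reads on genes in co-culture and 19091085 to 26127509 in the controls. Among 4907 well-covered genes, the median share of reads on the opposite strand was 0.124% and 0.211% in co-culture 2 and 3 and 1.57% to 1.75% in the other 4 libraries, and its part in the results was not tested beyond the fit given in the closing section. All 8 HEK293 markers were detected, with VIM (log2 fold change 0.40, edgeR adjusted p = 0.0079) and INA (0.38, adjusted p = 0.0118) called higher. Defining markers of blood, endothelium and liver stood at 0 to 5 reads per library, the fibroblast marker DCN at 1 to 8 and COL1A1 at 610 to 1591. DAO, the human gene for the enzyme, had 0 reads in all 6 libraries; a transgene of other sequence would not be counted there.

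Genes around the pathway gave the members' context. The lists were drawn up from general knowledge but with earlier results of these data known, and their members overlap in part. Their counts beside the shares of all genes are therefore a description only. Among 22 nonsense-mediated decay factors, such as UPF1 and SMG1, 0 were called by edgeR, with a median log2 fold change of -0.06. DESeq2 called 1 of these factors lower, where it called 3.12% of all tested genes lower, and limma-voom called 0. At an unadjusted p under 0.05, 2 of these were higher and 4 lower, where 23.2% of all tested genes passed that mark. Without control 1, 6 of the 22 were called lower, in a fit that called 10.6% of all its genes higher and 10.3% lower. Among 12 other mRNAs described as decay-sensitive, 4 were called higher and 0 lower, with a median of 0.17, where 2.66% of tested genes were called higher. ARRDC3, an arrestin-family adaptor, was at 19.7, 19.2 and 16.7 CPM in co-culture and 9.50, 9.70 and 10.9 CPM in the controls (log2 fold change 0.88, SE 0.11, edgeR adjusted p = 0.0021). GADD45B, a stress-response gene, was at 31.3, 28.0 and 27.4 CPM against 16.1, 17.2 and 19.9 CPM (0.70, SE 0.10, adjusted p = 0.0043). UPP1, uridine phosphorylase, was at 30.6, 34.9 and 35.7 CPM against 24.2, 24.8 and 21.98 CPM (0.52, SE 0.09, adjusted p = 0.0101). In each of these 3 mRNAs the groups did not overlap, and the list was not tested against the hosts. As background, these mRNAs also respond to stress signals through transcription. The call for ARRDC3 held in every alternative that left strand class out. With strand class as a term, which sets co-culture 1 alone against the controls, its log2 fold change was 0.97. Over the alternatives that left strand class out, the count of 4 ranged from 1 to 7. It was 1 without control 2, where 0.325% of all genes were called higher. It was 7 without control 1, where 10.6% were.

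Of 15 TOP mRNAs for translation factors and related proteins, 2 were called higher and 0 lower, where 2.66% of all tested genes were called higher, with a median log2 fold change of 0.03 (-0.01 under total-count scaling). EIF3E, a subunit of initiation factor eIF3, was at 209, 215 and 201 CPM in co-culture and 176, 170 and 167 CPM in the controls (log2 fold change 0.28, SE 0.06, edgeR adjusted p = 0.0220). PABPC1, the cytoplasmic poly(A)-binding protein, was at 504, 533 and 544 CPM against 455, 445 and 438 CPM (0.24, SE 0.06, adjusted p = 0.0480). The count was 0 with the replicate number as a term and without co-culture 1, co-culture 2 or control 2. These fits called 0.325% to 0.754% of all genes higher. Of 33 tested protein-coding snoRNA hosts, many of them ribosomal protein genes, 0 were called by edgeR, with a median of -0.00, values from -0.32 to 0.21 and 1 at an unadjusted p under 0.05. DESeq2 called 1 of them lower, where it called 3.12% of all tested genes lower, and limma-voom called 0. Of 8 tested further noncoding hosts 0 were called by edgeR, DESeq2 or limma-voom, and 1 had an unadjusted p under 0.05. Without control 1, where 10.6% of all genes were called higher and 10.3% lower, edgeR called 1 of the 8 higher and 2 lower. Without control 3, where 2.74% of all genes were called higher, it called 1 higher. SNHG4 stood out among them after the values were seen, at 9.31, 8.50 and 9.02 CPM in co-culture and 5.41, 6.36 and 7.48 CPM in the controls (log2 fold change 0.47, edgeR adjusted p = 0.0817).

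**Figure D4:**
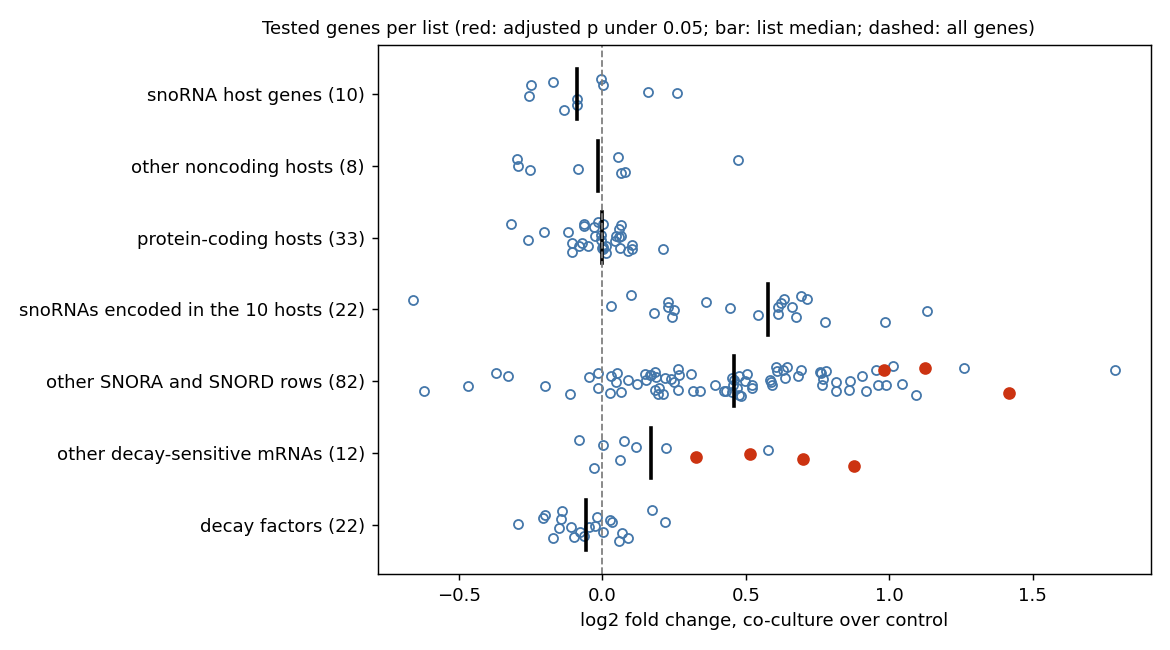
Log2 fold change (horizontal axis, co-culture over control) of every tested gene in 7 lists, with the number tested in brackets; filled red points are called at an adjusted p under 0.05, the bar is the list median and the dashed line the median of all tested genes. The 10 hosts lie around 0 with a median of -0.09, while the snoRNAs encoded in them that passed the count filter have a median of 0.58 with none called. The filter keeps low rows that are high in 1 group, and without it the snoRNA median is 0.41.

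Genes for the proteins that assemble on snoRNAs did not pass the test: of 17 snoRNP proteins and assembly factors 0 were called by edgeR, DESeq2 or limma-voom, with a median of -0.03 and 1 at an unadjusted p under 0.05. Of 22 genes for RNA polymerase I and early ribosome assembly 0 were called by the same 3 tools, with a median of -0.01. At an unadjusted p under 0.05, 2 of the 22 were higher and 5 lower, where 23.2% of all tested genes passed that mark. Without control 1, edgeR called 3 of the 17 and 8 of the 22 lower, where 10.3% of all genes were. Under total-count scaling it called 2 of the 22 lower, where 3.92% of all genes were. It called 1 of the 22 higher without co-culture 3 and 1 without control 3, where 1.57% and 2.74% of all genes were. Of 6 genes that neighbour a host in the genome 0 were called by edgeR or limma-voom and 1, SLC3A2, lower by DESeq2, with a median of -0.06 and 1 at an unadjusted p under 0.05. SLC3A2, the amino acid transporter subunit beside SNHG1, was at 85.7, 83.9 and 89.8 CPM in co-culture and 93.9, 109 and 112 CPM in the controls, lower without overlap and just short of the threshold (log2 fold change -0.28, edgeR adjusted p = 0.0533). It passed in DESeq2 (adjusted p = 0.0193), in edgeR without the count filter (0.0354) and with total-count scaling (0.0246), and without control 1 (0.000155). It did not pass in limma-voom (adjusted p = 0.0576), nor in edgeR with the replicate number as a term (0.108) or without co-culture 1 (0.187). With strand class as a term, which sets co-culture 1 alone against the controls, its log2 fold change was -0.30.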

How the data were processed

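Messenger RNA of 3 ROS co-culture and 3 control libraries was sequenced with a stranded kit, per the labels' protocols. The authors deposited unnormalised gene counts made with STAR (2.53a, build hg18, per the submitters' processing notes); FastQC is also named, and the annotation release is not given in the sources used here. The reverse-strand column was used; STAR's summary lines were left out of library sizes. The comparison was fitted in edgeR 4.0.16 (R 4.3.3): filterByExpr at a minimum count of 10 kept 14582 of 23686 genes and dropped 0.0473% of reads, with TMM scaling, robust quasi-likelihood F tests and Benjamini-Hochberg adjustment at 0.05. One read was worth 0.0279 to 0.0522 CPM. The script was tested on simulated counts. Alternatives were DESeq2 1.42.0, limma 3.58.1 (voom), other scalings, no filter, strand-blind counts, replicate number or strand class as a term, and leaving out each library. Named genes are all members, up to 3 called genes per list with the largest change, and the 5 most like the members. Members and lists were chosen with earlier results of these data known. Sequences come from RefSeq and GENCODE 29 by symbol, not from the files' build.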

Additional observations from a re-analysis of the deposited data

How the results depend on the processing

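With all 6 libraries and no term for strand class, the count of host RNAs called was 0 in every alternative fit run. Strand class parts co-culture 2 and 3, with fewer opposite-strand reads, from the other libraries. With it as a term, the group value therefore sets co-culture 1 alone against the controls. Leaving out 1 library gave 0 to 3 called. Without control 1 the count was 1 (SNHG3), in a fit that called 10.6% of all genes higher and 10.3% lower. Without control 3 it was 3 (SNHG3 higher, SNHG6 and ZFAS1 lower), in a fit that called 2.74% higher and 2.26% lower. Of the 10 members, 7 kept their sign in all 14 alternatives. SNHG1 took another sign in 6 (-0.05 to 0.08), SNHG12 in 5 (-0.18 to 0.09) and GAS5 in 1. The median of the members was -0.18 with strand class as a term and -0.13 to -0.04 with 1 library left out. The number of all genes called, 704, fell to 164 with the replicate block (110 higher, 54 lower), to 29 with strand class as a term (25 higher, 4 lower), and ranged from 65 (without control 2) to 3069 (without control 1) with 1 library left out, being 123 without co-culture 1, 74 without co-culture 2, 321 without co-culture 3 and 735 without control 3. The cause was not tested. Scaling by total counts lowered the median gene to -0.04 and turned the split to 310 higher and 572 lower, 35.1% higher against 55.1%. Same-numbered libraries did not deviate together (r = -0.05, -0.11 and -0.12). With 3 libraries per group, each set against its group mean, these values cannot exclude a pairing, and the labels state none. With the block, 0 members were called. DESeq2 called 1032 genes. SNHG12 had 144 reads in its thinnest library and an SE of 0.14. GAS5 and ZFAS1, with more reads, had an SE of 0.15 and 0.16. The part of depth in these widths was not tested.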
